A study of Arabidopsis thaliana with 12 samples.

Results

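The 43 Arabidopsis thaliana genes described here stood 1.5 to 5-fold higher in plants given proline than in plants given water, with every proline sample above every water sample. They were picked from 691 genes that have an array probe of their own. A member's probe had to read above 0 in all 12 samples and lie outside the brightest 10% of single-gene probes in water, and 9 genes were left out by name. The deposited intensities run from 0 to 100. They were divided by each sample's median over all 3439 probes, so that a scaled intensity of 1 is the level of the median probe. The 12 samples are total RNA of wild-type plants of the ecotype Wassilevskija, 6 given 100 mM proline for 6 h and 6 given water. The labels speak of proline reaching toxic levels in the cells. They name no organ or age and give no length for the water treatment, and an effect of its length and one of proline cannot be told apart. Whether the replicates came from different plants is not stated, and their spread may be technical.

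Proline is a building block of proteins that many plants also accumulate in drought and salt stress. It is made from glutamate in the cytosol and plastid and broken down in mitochondria, where its oxidation feeds electrons into the respiratory chain. Supplied from outside it can be toxic to plants. Part of the response to supplied proline in Arabidopsis runs through bZIP transcription factors that act on genes of proline breakdown. None of the 10 genes of proline synthesis, breakdown and transport looked for had a probe of its own, and none of 5 such bZIP factors, so that this pathway is not analysed here. The same held for 12 proteins associated with the plastid RNA polymerase and 13 genes of the plastid Clp protease.

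The values of all 12 samples chose the members, so their proline and water levels are given as a description, without a test. Of 468 single-gene probes above 0 in all samples and outside the brightest 10%, 46 met the same limits of fold and separation (9.83%), and 3 of these were among the genes left out by name. In the opposite direction, 38 of the 468 (8.12%) stood at least 1.5-fold lower with no overlap. These shares are not mirror images. The lowered probes had no upper limit of change, while 5 further separated probes were raised more than 5-fold. Brightness was limited by the water mean alone. Without a limit on fold or brightness, 61 of 538 probes had all proline samples above all water samples (11.3%) and 72 the reverse (13.4%). This split depends on the scaling. In the values as deposited 148 were higher and 15 lower (90.8% of those separated were higher), against 45.9% higher after scaling to the median and 52.5% after quantile normalization. In RNA from a mixture of cells, more cells that express a gene and more of its RNA in each cell cannot be told apart.

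Proline samples 3 and 4 stood apart. Their deposited medians were 0.361 and 0.350, against 0.213 to 0.240 in the other 4 proline samples and 0.171 to 0.188 in the water samples. Over the 43 members, samples 1 and 2, 3 and 4, and 5 and 6 of a group also lay closer to each other than to the rest. On the log2 scale the median distance between such samples was 0.0998 to 0.140 in proline and 0.145 to 0.180 in water. Between samples with other numbers it was 0.203 to 0.350 in proline and 0.192 to 0.366 in water. The same likeness was seen over all probes above 0 in every sample, so it was not particular to the members. There the distances were 0.148 to 0.19 against 0.308 to 0.558 in proline. In water they were 0.153 to 0.17 against 0.239 to 0.298. The 6 samples may therefore hold fewer than 6 independent measurements, and the small number of arrays bounds how precise any value here can be.

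The median member was 2.18-fold higher with proline, and the folds ran from 1.5 to 4.84. Of the 43 members, 8 reached 3-fold, 16 lay between 2 and 3-fold and 19 below 2-fold. The median of the 468 probes was 1.02-fold. By sample, the median member stood at 1.87 to 2.34 times its water mean in the proline samples and at 0.993 to 1.05 times in the water samples. Over the 425 probes that are not members, these medians were 0.932 to 0.984 and 0.957 to 1.03.

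**Figure D1:**
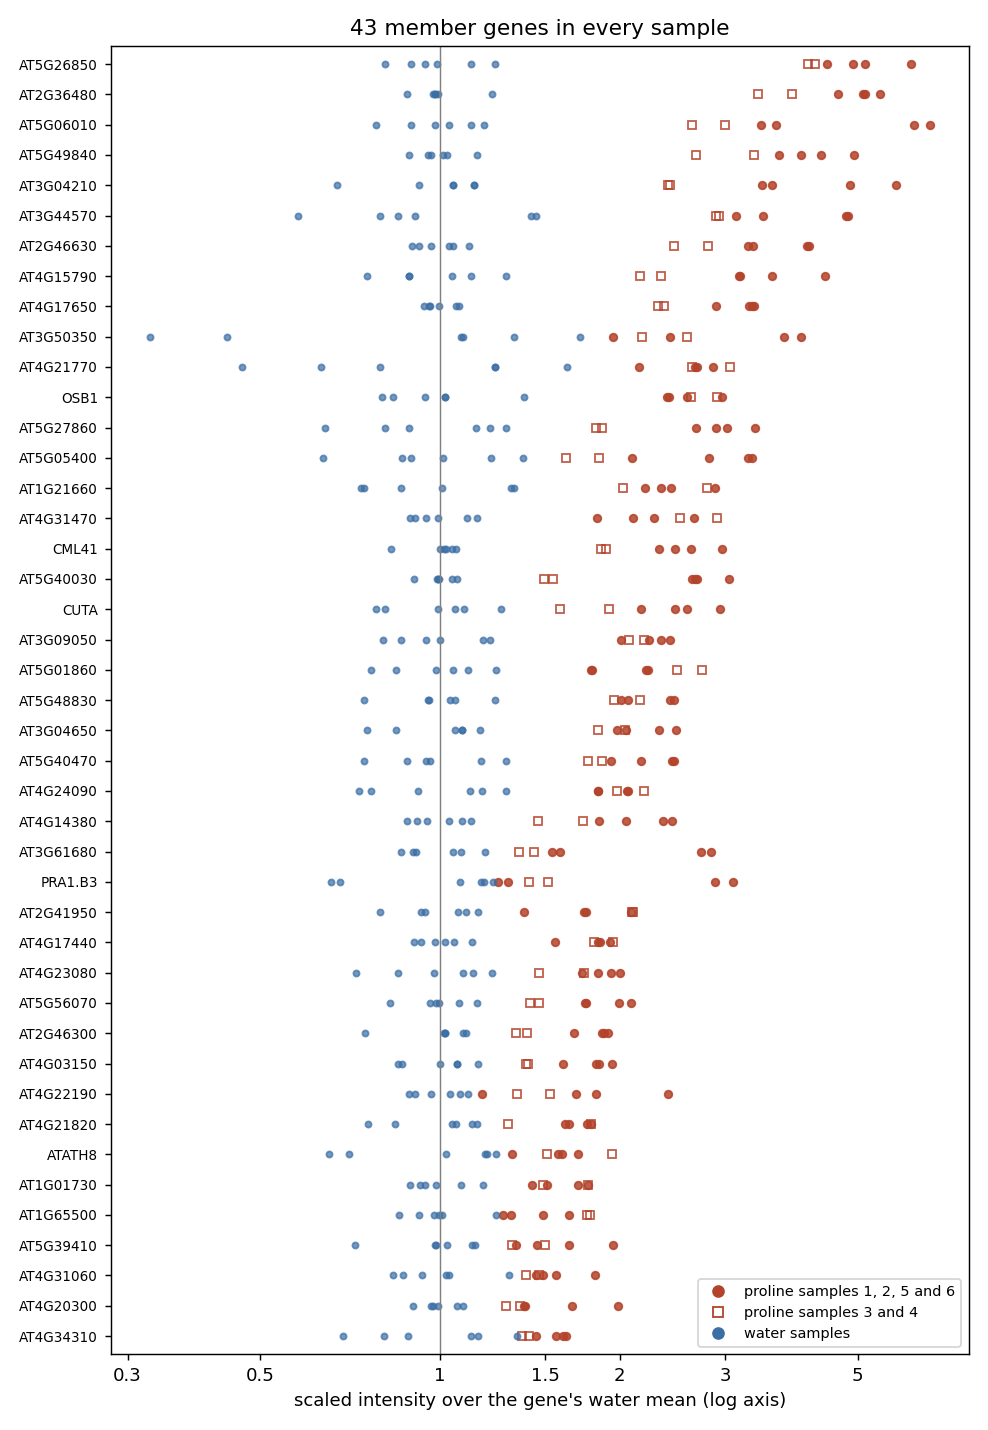
Scaled intensity of each of the 43 members in every sample, divided by the gene's mean over the 6 water samples (log axis), ordered by fold from top to bottom. Filled red circles are proline samples 1, 2, 5 and 6, open red squares proline samples 3 and 4, and blue circles water samples; in each row all red symbols lie right of all blue ones, with the widest gap for AT5G26850 and narrow gaps for PRA1.B3 and AT4G34310.

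The annotation gives 5 members a symbol (OSB1, CML41, CUTA, PRA1.B3 and ATATH8) and the other 38 a locus code alone. What is said below of the products of these loci is background knowledge and does not come from the deposited table. Roles were not counted over the other probes, so that none is shown to be more frequent among the members.

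Several members act in mitochondria. AT5G49840 encodes a ClpX protein, the unfolding subunit of the mitochondrial Clp protease. Its scaled intensity ran from 1.98 over a median of 2.85 to 3.64 in proline and from 0.656 over 0.729 to 0.852 in water. The proline mean of 2.84 ± 0.58 was 3.84-fold the water mean of 0.738 ± 0.066 (SD, n = 6 each), and the lowest proline sample stood at 2.33 times the highest water sample. AT4G17650 encodes a protein of the COQ10 type, which binds coenzyme Q, the carrier that takes up electrons from proline oxidation. It spanned 5.90 to 8.54 in proline with a median of 7.90, and 2.40 to 2.74 in water with a median of 2.49, and was 2.93-fold higher. Water samples of this gene lay within a narrow band. Samples 3 and 4 were the lowest of the proline group after scaling but the highest in the values as deposited, at 2.13 and 2.11. OSB1 binds single-stranded DNA in mitochondria and limits recombination of the mitochondrial genome. For OSB1 the proline samples lay between 1.23 and 1.52 with a median of 1.34 and the water samples between 0.410 and 0.710 with a median of 0.504, a 2.65-fold difference.

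Another set belongs to families known from immunity and calcium signalling. AT3G04210 encodes a TIR-NBS protein, a truncated form of the intracellular immune receptors. It ran from 2.77 over a median of 4.06 to 6.67 in proline and from 0.773 over 1.21 to 1.31 in water, which is 3.77-fold. Proline samples 5 and 6 were the highest at 6.67 and 5.59, and samples 3 and 4 the lowest at 2.77 and 2.79. In the values as deposited the lowest was proline sample 2, at 0.939. AT5G05400 encodes a receptor of the NBS-LRR type. Its probe read below the median probe in every sample, between 0.471 and 0.967 in proline with a median of 0.712 and between 0.185 and 0.400 in water with a median of 0.276. The fold was 2.50, and the lowest proline sample stood at 1.18 times the highest water sample.

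CML41 is a calmodulin-like calcium sensor that acts at plasmodesmata, the channels between plant cells. It lay between 2.40 and 3.82 in proline with a median of 3.10, and between 1.07 and 1.37 in water with a median of 1.32. The groups were 2.36-fold apart, and the water samples other than sample 6 stood within 1.29 to 1.37. AT4G31470 encodes a protein of the CAP superfamily, to which the defence protein PR-1 belongs. It spanned 2.16 to 3.43 in proline with a median of 2.84 and 1.05 to 1.36 in water with a median of 1.14, and was 2.39-fold higher. Here proline sample 4 was the highest and sample 1 the lowest.

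CUTA is a small copper-binding protein of the plastid. It ran from 2.10 over a median of 3.06 to 3.88 in proline and from 1.03 over 1.35 to 1.67 in water, which is 2.28-fold. AT3G61680 encodes PLIP1, a lipase that acts on phosphatidylglycerol of the thylakoids. It spanned 0.744 to 1.56 in proline with a median of 0.858 and 0.471 to 0.653 in water with a median of 0.538, a fold of 1.92. Proline samples 5 and 6, at 1.5 and 1.56, stood apart from the other 4 at 0.744 to 0.871, which lay just above the water samples.

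RNA is the substrate of another pair. AT2G36480 encodes a protein similar to Pcf11, a factor of messenger RNA 3′-end formation known from yeast. It had the second highest fold, 4.59, with 3.72 to 5.95 in proline around a median of 5.32 and 0.960 to 1.33 in water around a median of 1.07. The proline mean was 5.02 ± 0.87 and the water mean 1.09 ± 0.12 (SD, n = 6 each). AT4G21770 belongs to the pseudouridine synthases, enzymes that modify RNA. It lay between 2.80 and 3.98 in proline with a median of 3.49. In water it was widely spread, between 0.607 and 2.12 with a median of 1.32, and the fold was 2.69. Its water sample 3 stood highest, at 2.12, and the groups remained apart by a factor of 1.32. AT4G31060, an AP2/ERF transcription factor of the DREB family, was near the lower limit of the fold, at 1.53. It spanned 1.66 to 2.16 in proline with a median of 1.76 and 0.993 to 1.55 in water with a median of 1.17.

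Kinases, a protein of vesicle transport and a protein with a J domain were also among the members. AT5G40030 encodes a protein kinase. It ran from 4.55 over a median of 8.11 to 9.28 in proline and from 2.76 over 3.04 to 3.26 in water, which is 2.35-fold. Proline samples 3 and 4, at 4.55 and 4.71, were far below the other 4, at 8.06 to 9.28, and from samples 3 and 4 alone the fold was 1.52, against 2.76 from the other 4. ATATH8 belongs to the ABC1 family of atypical kinases. Its proline samples lay between 0.589 and 0.866 with a median of 0.707 and its water samples between 0.291 and 0.553 with a median of 0.493, a fold of 1.61 with a gap of 1.07 between the groups. PRA1.B3 is a prenylated RAB acceptor, a membrane protein that interacts with the RAB GTPases of vesicle transport. It spanned 1.84 to 4.54 in proline with a median of 2.15 and 0.965 to 1.80 in water with a median of 1.66. The fold was 1.91. Proline samples 5 and 6 stood at 4.54 and 4.24 and the other 4 at 1.84 to 2.23, close to the highest water sample. Against the water sample of the same number the ratios were 1.97, 1.83, 1.19, 1.40, 2.52 and 2.46 for the numbers 1 to 6, with water samples 1 and 2 the lowest of their group, at 0.965 and 1.0. Taken as a ratio of medians its log2 fold was 0.38, below the 1.5-fold limit. AT1G21660, a protein with the J domain of DnaJ co-chaperones, lay between 0.856 and 1.22 in proline with a median of 1.01 and between 0.311 and 0.562 in water with a median of 0.395, a 2.45-fold difference.

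AT3G04650 encodes an oxidoreductase that binds FAD and NAD(P). It was 2.12-fold higher, with 3.66 to 4.94 in proline around a median of 4.07 and 1.5 to 2.32 in water around a median of 2.14. AT5G39410 encodes a protein like saccharopine dehydrogenase, an enzyme of lysine breakdown. It spanned 1.94 to 2.86 in proline with a median of 2.17 and 1.06 to 1.68 in water with a median of 1.48, a fold of 1.54. AT4G34310, an alpha/beta hydrolase, had the lowest fold of all members, 1.5, with 0.703 to 0.832 in proline around a median of 0.770 and 0.352 to 0.688 in water around a median of 0.514. Its lowest proline sample stood at 1.02 times its highest water sample. AT2G46300 encodes a hydroxyproline-rich glycoprotein of the late embryogenesis abundant family. It lay between 4.55 and 6.49 in proline with a median of 6.04 and between 2.55 and 3.76 in water with a median of 3.46, which is 1.68-fold.

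The highest fold belonged to AT5G26850, for which no role is given here. It ran from 2.92 over a median of 3.31 to 4.35 in proline and from 0.571 over 0.684 to 0.874 in water. The proline mean of 3.42 ± 0.53 was 4.84-fold the water mean of 0.707 ± 0.111 (SD, n = 6 each), and its lowest proline sample stood at 3.34 times its highest water sample, the widest gap among the 43. AT5G06010 spanned 10.4 to 26.0 in proline with a median of 14.0 and 3.08 to 4.67 in water with a median of 3.97, a fold of 4.25. Its proline samples fell into separate levels, with 26.0 and 24.5 in samples 5 and 6 and 10.4 to 14.4 in the other 4. AT3G44570 stood at 1.77 to 2.94 in proline around a median of 2.02 and at 0.353 to 0.884 in water around a median of 0.537, which is 3.67-fold. In this gene samples 1 and 2 were the highest of the proline group, at 2.94 and 2.92. AT2G46630 lay between 6.99 and 11.8 in proline with a median of 9.40 and between 2.55 and 3.18 in water with a median of 2.84, a fold of 3.37. AT4G15790 ran from 2.85 over a median of 4.19 to 5.83 in proline and from 0.998 over 1.28 to 1.70 in water, a fold of 3.15. In both genes the groups were far apart, by factors of 2.20 and 1.68 between the lowest proline and the highest water sample.

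AT4G20300 was near the lower limit, with 1.56 to 2.40 in proline around a median of 1.68 and 1.09 to 1.32 in water around a median of 1.19, a fold of 1.51. AT1G65500 also read below the median probe in every sample, with 0.484 to 0.677 in proline around a median of 0.593 and 0.324 to 0.470 in water around a median of 0.374. Its fold of 1.55 came down to 1.43 without proline samples 3 and 4, below the limit of 1.5.

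The remaining members carry a locus code, and no role is given for them here. AT3G50350 was 2.83-fold higher, with water samples from 0.464 to 2.44, and AT5G27860 2.61-fold, with both groups well spread. AT3G09050, AT5G01860, AT5G48830 and AT5G40470 were 2.21, 2.21, 2.18 and 2.11-fold higher. AT4G24090 and AT4G14380 were both 1.99-fold higher, AT2G41950 was 1.86-fold, AT4G17440 was 1.82-fold and AT4G23080 was 1.79-fold. The folds of AT5G56070, AT4G03150, AT4G22190, AT4G21820 and AT1G01730 ran from 1.74 down to 1.61. Of these, AT4G22190 had the smallest gap, with its lowest proline sample at 1.05 times its highest water sample.

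**Figure D2:**
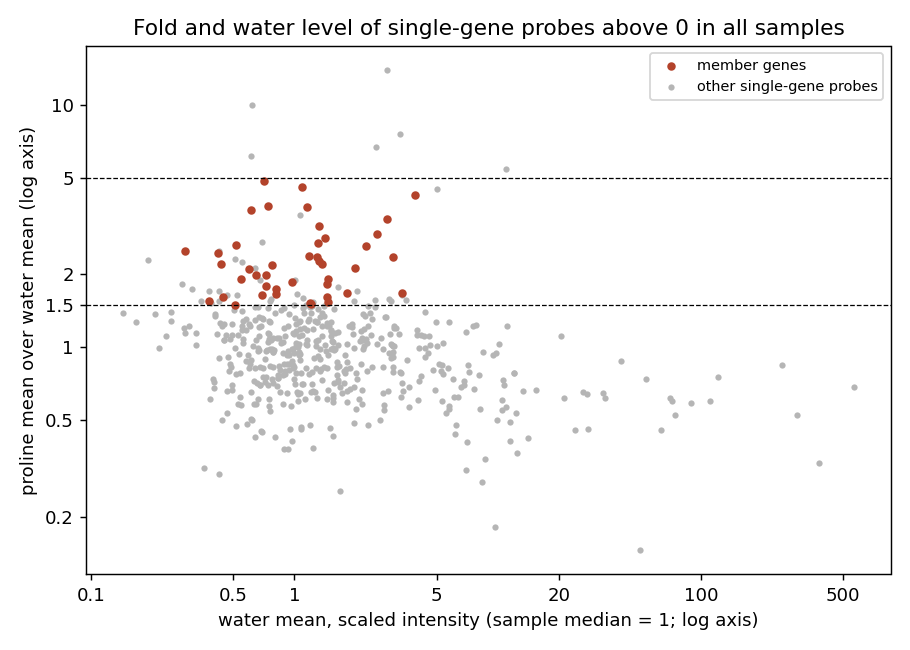
Proline mean over water mean against the water mean in scaled intensity (both log axes) for the 538 single-gene probes above 0 in all samples. The 43 members are red and the other probes grey, and dashed lines mark 1.5 and 5-fold; members span water means from 0.290 to 3.94, and grey points between the lines are probes whose groups overlap or genes left out by name.

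The limits of the rule cut through a continuous range. Just outside the lower limit, AT4G16410 and AT4G33480 were separated at 1.48-fold, and just inside it AT4G34310 and AT4G20300 at 1.5 and 1.51-fold. At the upper limit AT2G36480 and AT5G26850, at 4.59 and 4.84-fold, lay inside, and AT1G02020 and AT1G76450, at 6.14 and 6.72-fold, outside. Of 76 probes within the limits of fold, 30 had overlapping groups. The closest of these were AT2G46850, at 2.12-fold, and AT3G04500, at 1.55-fold, whose lowest proline sample stood at 0.980 and 0.979 times the highest water sample. Among the 43 members this factor ran from 1.02 to 3.34 with a median of 1.37, was under 1.1 for 6 and reached 2 for 8.

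Of the 9 genes left out by name, 3 met all numeric limits. AT3G06200 was 4.49-fold higher with proline, AT-HF, an enzyme of histidine synthesis, 3.52-fold, and the histone H3 gene AT5G65360 2.73-fold. The other 6 failed a limit.

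The members differed in how the proline samples were ordered. Samples 3 and 4 were both below the other 4 proline samples in 22 members (51.2%) and both above them in 3 (6.98%), which were AT5G01860, AT2G41950 and AT1G65500. Among the 425 other probes these shares were 25.9% and 18.6%. The same proline values chose the members, so the difference in shares was not tested. The order of samples 3 and 4 depends on the scaling, because they were divided by higher medians. In the values as deposited both stood above the other 4 in 26 members and below them in 1. The deposited order was not counted over the other probes. From samples 3 and 4 alone the median member was 1.88-fold above its water mean, and from the other 4 it was 2.22-fold. Of the 43, 33 had the smaller fold in samples 3 and 4, and 10 were under 1.5-fold there. These counts were not made over the 425 other probes. The medians of those probes were 0.966 and 0.978 times the water mean in samples 3 and 4, and 0.932 to 0.984 in the other 4. Without samples 3 and 4 only AT1G65500 came under 1.5-fold.

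**Figure D3:**
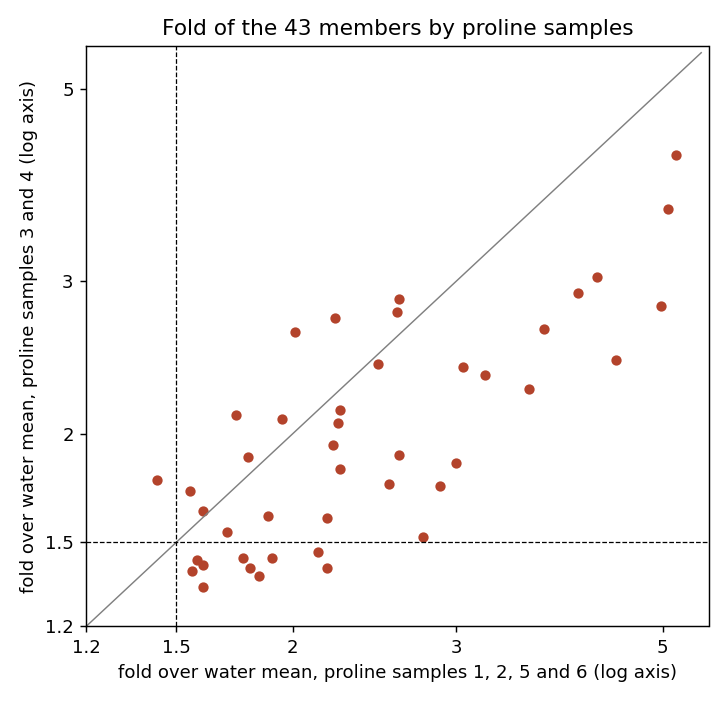
Fold over the water mean of each member in proline samples 3 and 4 against that in proline samples 1, 2, 5 and 6 (both log axes). The grey line marks equal folds and dashed lines 1.5-fold. Of the 43 points, 33 lie below the grey line and 10 below the horizontal dashed line. Other probes are not shown, and these counts were not made for them.

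Samples 5 and 6 were both above the other 4 proline samples in 14 members (32.6%), among them AT5G06010, AT3G04210, AT5G05400, AT3G61680 and PRA1.B3. The same held for 18.8% of the 425 other probes. The proline values that give this order also chose the members, so the difference in shares was not tested. The order also depends on the scaling, because samples 5 and 6 were divided by the lowest proline medians, 0.213 and 0.215. The members named here kept it in the values as deposited. Others did not, such as AT2G46630, at 2.51 and 2.53 against 2.79 in sample 4. Averaged in twos by number, the highest scaled level was in samples 5 and 6 for 20 members, in samples 1 and 2 for 14 and in samples 3 and 4 for 9. This was not counted over the 425 other probes. It depends on the scaling in the same way, so that the split is not shown to be particular to the members.

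The spread within a group was measured by the coefficient of variation (SD over mean). The coefficient of variation of a member ran from 6.98% to 44.3% in proline with a median of 15.7%, and from 5.64% to 53.0% in water with a median of 16.1%. Over the 425 other probes the medians were 24.7% and 17.7%. Members were chosen for separated groups, which favours a low spread.

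**Figure D4:**
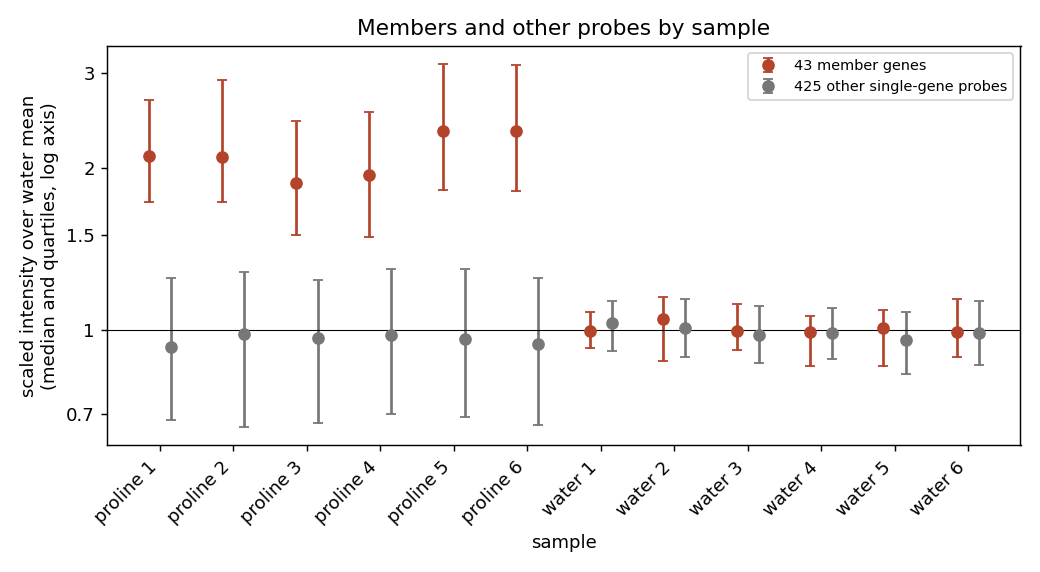
Scaled intensity over the gene's water mean by sample (log axis), as median and quartiles over the 43 members (red) and over the 425 other single-gene probes above 0 and outside the brightest 10% (grey). The member medians are lowest in proline samples 3 and 4, at 1.87 and 1.94, and highest in samples 5 and 6, both at 2.34.

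The scaling set the size of the folds. In the values as deposited the median member was 3.27-fold higher and the median of the 468 probes 1.56-fold. After quantile normalization the medians were 2.15 and 1.04. The median fold of the members was thus 2.13 times that of the 468 probes after scaling to the median. It was 2.07 times after quantile normalization and 2.09 times as deposited. The 468 include the members, which were chosen by their fold. Dividing each sample by a constant moves the folds of all probes nearly alike. The scaled and deposited ratios could therefore hardly differ. After quantile normalization 42 of the 43 kept every proline sample above every water sample, and 40 were at least 1.5-fold. In the values as deposited the separation was bound to hold, since every proline median lay above every water median.

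The annotation pairs 4 members with a further probe that it also pairs with other genes, so that it is uncertain which gene such a probe measured. These probes were not used to choose members, but they were read in the same 12 samples. The second probe listing AT4G17440 read 1.76 ± 0.95 in proline and 2.11 ± 0.37 in water (SD, n = 6 each; 0.832-fold). That listing AT5G56070 read 0.624 ± 0.294 and 0.747 ± 0.135 (0.836-fold). The one listing AT5G01860 was at 0 in 5 of the 12 samples and gives no usable fold. For PRA1.B3 the second probe read 2.22 ± 0.23 in proline and 1.57 ± 0.25 in water, 1.41-fold. Thus 2 of the 3 usable second probes had a lower mean in proline, unlike the members' own probes.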

How the data were processed

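Transcript levels of 12 samples came as 1 table of 3439 probes. The authors deposited linear intensities that end at 100, as the values themselves show; scanning, background correction, scaling and array type are not described in the labels. A sample had 432 to 529 probes at 0, and what 0 means is unknown. All columns belonged to the 12 samples (0 others).

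Groups and replicate numbers came from the sample titles. Probes were named through GEO's platform annotation, which can be old: 692 list 1 gene, 870 several and 1877 are unnamed here; 690 of the 692 matched a gene of assembly TAIR10.1. Only its names and gene order were used, and no coordinates are given.

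Each sample was divided by its median over all probes (Python 3.11.15, pandas 2.3.3), and the rule given in the text was applied. Fold is the ratio of arithmetic means, with no pseudocount. The members and lists were chosen with earlier results of these data known. Every member is named. Full values were planned for the 8 members of highest and 4 of lowest fold, the 4 of highest and 2 of lowest water mean, and up to 16 others of known role. The rule was tested on simulated data with samples drawn independently, without the likeness of samples by number seen here. That test checked the code and cannot show how the rule behaves on these data.

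The replicate numbers occur in both groups, unexplained by the labels. Over 2664 probes above 0 in all samples, deviations from the group mean (log2) had correlations between same-numbered samples of 0.29, 0.28, 0.25, 0.27, 0.14 and 0.13 (numbers 1 to 6). All exceeded the limit of 0.1, and the samples were treated as paired in the alternative with a block. With a water sample of another number, the highest correlations of the proline samples were 0.2, 0.22, 0.17, 0.17, 0.04 and 0.06. These were lower, but for numbers 1 to 4 they also exceeded the limit. Passing it therefore does not by itself show pairing by number. Alternatives changed the scaling, the averaging, the filters, the pairing and the samples used.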

Additional observations from a re-analysis of the deposited data

Results flagged for a closer look

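Over the members, 86 groups of 6 scaled intensities were examined for a single distant sample, and 5 held one. By chance about 1 in 20 groups of independent, normally distributed values would. Samples here were alike by number and the same values chose the members, so that this rate may not apply. Proline sample 1 of AT4G17440 read 2.26, below the 2.63 to 2.83 of its group. Proline sample 3 of AT4G21820 read 0.900, below 1.12 to 1.24. In water, sample 6 of CML41 read 1.07, below 1.29 to 1.37. Water sample 5 was distant in a pair of genes: it read 2.55 for AT2G46300, below 3.46 to 3.76, and 1.33 for AT2G36480, above 0.960 to 1.08.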

How the results depend on the processing

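Of the 43 members, 39 met the rule after quantile normalization (42 genes in all), 38 with medians in place of means (39 in all) and 42 with means of log2 values (42 in all). With the replicate block, ratios within each replicate number gave 54 genes, 42 of them members, and a median log2 fold of 1.14. That fold equals the one from means of log2 values by construction, so it does not bear on the pairing. Averaging samples 1 with 2, 3 with 4 and 5 with 6 first gave 59 genes; it leaves folds and separation of the 43 members as they were, and these are among the 59 by construction. Without proline samples 3 and 4 there were 56 genes, 40 of them members. Leaving out 1 sample at a time gave 41 to 47 genes, with at least 39 of the members, and a median log2 fold of 1.09 to 1.14. In the values as deposited 118 genes met the rule, 37 of them members, and the median log2 fold was 1.71, since most probes stood higher with proline there. Counting all probes, named or not, gave 194. Keeping probes at 0 gave 44, keeping the brightest 10% gave 43 and keeping the genes left out by name gave 46. No member changed direction after quantile normalization; in the other settings the separation required by the rule fixes the direction. The values as deposited moved 42 members by more than the spread between replicates, and medians moved 1, PRA1.B3, to 0.38. No signal of single probes against local background was used, so the floor of reliable detection is unknown. The planned search of promoters for motifs was not run, since no promoter sequences were used here.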

Other observations

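The locus codes place 14 members on chromosome 4, 12 on chromosome 5, 7 on chromosome 3, 6 on chromosome 2 and 4 on chromosome 1. Members were thus 15.2% of the probes on chromosome 4 that were above 0 and outside the brightest 10%, 14.0% on chromosome 5, 8.33% on chromosome 3, 6.52% on chromosome 2 and 3.57% on chromosome 1. This order was noticed after the members were known and was not tested. In the gene order of TAIR10.1, PRA1.B3 and AT5G05400 have 1 protein-coding gene between them, and AT4G21770 and AT4G21820 have 4. PRA1.B3 and AT5G05400 were both highest in proline samples 5 and 6, at 4.54 and 4.24 and at 0.967 and 0.950, an order shared by 32.6% of members. In the other pair, AT4G21770 was highest in proline sample 3, at 3.98, where AT4G21820 was lowest, at 0.900. In the values as deposited AT4G21820 was lowest in proline sample 5, at 0.239, and read 0.325 in sample 3.

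Among the probes that list several genes or are unnamed here, 151 met the same numeric limits, of 1832 that were above 0 in all samples and no brighter in water than the single-gene probes considered (8.24%). No gene can be given for them.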
